A study of Mus musculus with 6 samples.

Results

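Myoc and 4 flavin-containing monooxygenase genes, Fmo1, Fmo2, Fmo4 and Fmo5, were followed in mouse hippocampus by RNA sequencing. They are 5 of the 51912 genes listed in the deposited table. They were taken by gene symbol and were chosen by their measured values in this same comparison of strains, so the levels below are a description and carry no test. Hippocampus of the inbred strain DBA/2 (3 libraries) was set against hippocampus of the inbred strain C57BL/6 (3 libraries), with no treatment named for either strain. No sex, age or substrain is given in the labels, which leave unclear if a library holds RNA of 1 animal or of a pool. A p-value here therefore measures only the spread between these libraries.

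Myoc encodes myocilin, a secreted glycoprotein with an olfactomedin domain that is best known from the drainage tissue of the eye, where human mutations cause open-angle glaucoma. In mouse brain its transcript is known from astrocytes at the brain surface. Flavin-containing monooxygenases are membrane enzymes of the endoplasmic reticulum that use NADPH and oxygen to oxidise nitrogen and sulphur atoms of amines, thiols and many drugs. Most mouse Fmo genes lie side by side on the chromosome that also carries Myoc, while Fmo5 lies elsewhere and encodes an enzyme known for inserting oxygen beside carbonyl groups.

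On build GRCm38, Myoc spans chr1:162639155-162649693 on the plus strand. The nearby Fmo genes all lie on the minus strand, with Fmo4 at chr1:162793188-162813972, Fmo1 at chr1:162829561-162866610 and Fmo2 at chr1:162874317-162898726. Fmo5 spans chr3:97628804-97655282 on the plus strand. The 250 reference bases before the annotated start, for Fmo2 the outer of its 2 RefSeq starts, are shown for Myoc and Fmo2, the members with the widest strain differences in opposite directions, as they stand in RefSeq on GRCm38.p6. Capitals mark TATAAA, and the lines run 5′ to 3′ on the strand of the gene, chr1:162638900-162639149 (plus) for Myoc and chr1:162898759-162899008 (minus) for Fmo2.
Myoc: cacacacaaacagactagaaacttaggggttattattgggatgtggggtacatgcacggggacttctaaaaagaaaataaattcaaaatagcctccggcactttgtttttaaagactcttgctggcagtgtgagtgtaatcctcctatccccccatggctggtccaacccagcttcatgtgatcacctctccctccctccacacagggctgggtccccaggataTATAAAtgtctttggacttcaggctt
Fmo2: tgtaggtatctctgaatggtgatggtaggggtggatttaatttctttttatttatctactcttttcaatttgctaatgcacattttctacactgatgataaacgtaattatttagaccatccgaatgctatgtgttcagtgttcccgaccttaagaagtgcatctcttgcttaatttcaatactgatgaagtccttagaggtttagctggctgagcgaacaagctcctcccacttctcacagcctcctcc
Each window was searched on both strands for TATAAA (the TATA box), AGAACA (a glucocorticoid receptor binding motif) and CACGTG (an E-box), which do not overlap one another. The Myoc window held 1 TATAAA, 26 bases before the start, and none of the other motifs. The Fmo2 window shown held none of them, while the window of the inner Fmo2 start, chr1:162898494-162898743, held 1 AGAACA, 125 bases before that start. The Fmo5 window, chr3:97628769-97629018, held 1 TATAAA on the opposite strand, 195 bases before the RefSeq start. The Fmo4 window, chr1:162812550-162812799, held none of the motifs. The RefSeq starts of Fmo5 and Fmo4 and the inner start of Fmo2 lie inside the gene spans given above. The Fmo5 window and the inner Fmo2 window therefore lie mostly, and the Fmo4 window wholly, inside those spans. Over 32841 RefSeq promoters of the same length, 12.4% held TATAAA, 16.1% held AGAACA and 6.02% held CACGTG. The sequence table held 4 of the 5 members, all but Fmo1.

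Total counts were 13839366 to 16912153 per DBA/2 library and 13867280 to 20185683 per C57BL/6 library. All 10 hippocampus markers were detected in both strains. Their sums were 1579 to 1582 CPM in DBA/2 and 1425 to 1439 CPM in C57BL/6. CPM are counts scaled to library depth with edgeR's TMM factors. Of these markers, 3 were called higher and 1 lower in DBA/2, beside 9.09% and 13.7% of all tested genes. The C57BL/6 libraries differed in Xist, the transcript of the inactive X chromosome, which had 0.705, 0.589 and 0.144 CPM in DBA/2, against 193, 0.0729 and 349 CPM in C57BL/6. The Y-linked gene Ddx3y had 60.3 to 77.7 CPM in DBA/2 and 50.2 to 72.6 CPM in C57BL/6, so the C57BL/6 libraries with Xist also held Y-linked transcript. Of 5 sex-linked genes, Eif2s3y was the 1 called, higher in DBA/2. This count was 0 without DBA/2 replicate 1 or 2 or C57BL/6 replicate 1, with an edgeR adjusted p up to 0.0906 for Eif2s3y, and 3 without C57BL/6 replicate 2. Because 2 of the 3 C57BL/6 libraries stood apart in this way, member values are also given with C57BL/6 replicate 2 alone.

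Myoc was the member with the widest strain difference. It had 16, 11 and 4 counts in DBA/2 replicates 1 to 3, against 414, 225 and 396 counts in C57BL/6. No DBA/2 library reached a C57BL/6 one, and the lowest C57BL/6 library held many times the counts of the highest DBA/2 library. Scaled to depth, Myoc averaged 0.625 ± 0.326 CPM in DBA/2 and 20.4 ± 4.29 CPM in C57BL/6 (SD, n = 3 each). The mean was 32.6-fold lower in DBA/2, and the fitted log2 fold change, DBA/2 over C57BL/6, was -4.97 ± 0.25 (SE). Summed over libraries, the depth-scaled ratio of DBA/2 to C57BL/6 counts was 0.0320, with an exact 95% interval of 0.0217 to 0.0458 that covers counting error only. Among 17517 tested genes, Myoc ranked 41st by lowest log2 fold change. In bulk tissue, fewer cells of a type and less RNA per cell cannot be told apart.

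Myoc also varied within each strain. Its coefficient of variation was 52.2% over the DBA/2 libraries. This lay between the median of 29.8% and the 90th percentile of 56.4% of genes within 1.5-fold of its level there. Over the C57BL/6 libraries the coefficient of Myoc was 21.1%, above the median of 6.28% and the 90th percentile of 11.9% of genes at its level. DBA/2 replicate 3, with 4 counts, lay closest to the floor of 3 counts, which equals 0.217 CPM in that library. Without the C57BL/6 libraries with Xist, C57BL/6 replicate 2 alone had 16.4 CPM and the log2 fold change was -4.65.

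A gene on the opposite strand runs into Myoc. Myocos, at chr1:162647193-162658219, overlaps Myoc by 2501 bases of genome, and their transcripts share 95 bases in opposite orientation. Myocos had 0 counts in every DBA/2 library, against 5, 7 and 3 counts in C57BL/6. With a floor of 3 counts over the 3 DBA/2 libraries, its depth-scaled level was 4.67-fold lower in DBA/2. This value takes the few C57BL/6 counts as exact, so it is no lower bound. The sources used here do not say whether counting used strand, so reads from the shared stretch cannot be told apart.

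**Figure D1:**
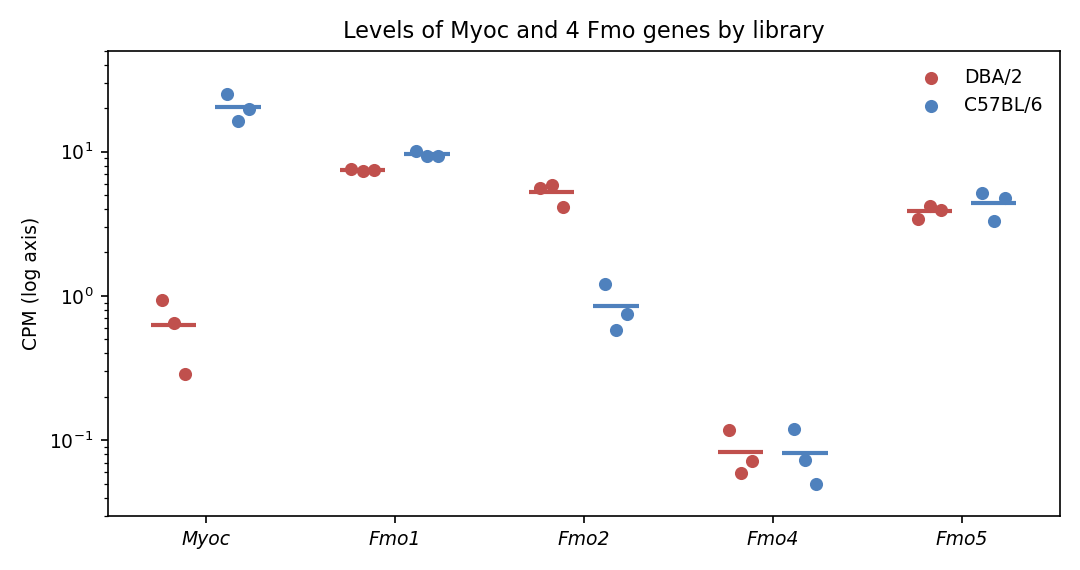
CPM (vertical log axis) of Myoc, Fmo1, Fmo2, Fmo4 and Fmo5. Points are libraries, red for DBA/2 on the left and blue for C57BL/6 on the right, and bars are means of 3 libraries. Myoc lies at 0.288 to 0.939 CPM in DBA/2 and at 16.4 to 24.9 CPM in C57BL/6, while Fmo2 lies at 4.11 to 5.89 CPM in DBA/2 and at 0.583 to 1.20 CPM in C57BL/6.

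Fmo2, which encodes the monooxygenase best known from lung, differed in the opposite direction. It had 96, 100 and 57 counts in DBA/2, against 20, 8 and 15 counts in C57BL/6. Every DBA/2 library lay above every C57BL/6 library. Its mean was 5.21 ± 0.964 CPM in DBA/2 and 0.845 ± 0.322 CPM in C57BL/6 (SD, n = 3 each), 6.17-fold higher in DBA/2. The log2 fold change was 2.61 ± 0.26 (SE), the 89th highest of the tested genes. With C57BL/6 replicate 2 alone, at 0.583 CPM, it was 3.15.

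Fmo1, the monooxygenase of mouse kidney and liver that is also made in brain, had 129, 125 and 104 counts in DBA/2, against 167, 128 and 188 counts in C57BL/6. In CPM these were 7.57, 7.36 and 7.49 in DBA/2 and 10.1, 9.33 and 9.38 in C57BL/6. The strains did not overlap, although the gap was small beside those of Myoc and Fmo2. The log2 fold change of Fmo1 was -0.36 ± 0.12 (SE). Its libraries lay close together, with a coefficient of variation of 1.43% in DBA/2, where genes at its level had a median of 10.9%, and 4.21% in C57BL/6, where the median was 8.73%. With C57BL/6 replicate 2 alone its log2 fold change was -0.32.

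Fmo5 had 58, 71 and 55 counts in DBA/2, against 86, 45 and 95 counts in C57BL/6. Its values of 3.41, 4.18 and 3.96 CPM in DBA/2 lay between those of the C57BL/6 libraries, which were 5.18, 3.28 and 4.74 CPM. The mean was 3.85 ± 0.400 CPM in DBA/2 and 4.40 ± 0.993 CPM in C57BL/6 (SD, n = 3 each), a log2 fold change of -0.21 ± 0.19 (SE). Its sign rested on the C57BL/6 libraries with Xist, since with C57BL/6 replicate 2 alone it was 0.23.

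Fmo4, which encodes a little-studied enzyme of the family, was near the limit of detection. It had 2, 1 and 1 counts in DBA/2, and the same 2, 1 and 1 counts in C57BL/6. All 6 libraries lay under the floor of 3 counts, no fold change is given, and a difference was not detectable at this depth.

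Of the 5 members, 4 passed the filter on low counts, and 3 of these were called at an adjusted p under 0.05. Fmo2 was called higher in DBA/2, beside 9.09% of all tested genes called higher, and Myoc and Fmo1 were called lower, beside 13.7% called lower. In either direction 22.8% of all tested genes were called. The strains did not overlap in the same 3 members, and they did not overlap in 36.8% of all tested genes. The members were chosen by this contrast, so these calls are a description and no test, and nothing is read from them or from their count. The median absolute log2 fold change over all tested genes was 0.15, and the median was 0.00.

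Fmo6 and Fmo9, other members of the family, were scarcely detected. Fmo6 had 3, 1 and 0 counts in DBA/2, against 0, 0 and 1 counts in C57BL/6. Fmo9 had 0, 0 and 1 counts in DBA/2, against 1, 0 and 0 counts in C57BL/6. All of these counts lie at or under the floor.

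Divided by exonic length, the levels put the members in a different order in each strain. The deposited exonic length was 6304 bases for Fmo1, 5609 for Fmo2, 5675 for Fmo5 and 2074 for Myoc. Their longest coding transcripts were 2388, 4066, 5197 and 2074 bases, so levels compared between genes depend on the length used. In DBA/2 the order by mean FPKM (deposited by the authors, counts scaled to exonic length and depth) was Fmo1 at 1.19, Fmo2 at 0.933, Fmo5 at 0.680, Myoc at 0.307 and Fmo4 at 0.0233. Fmo2, at 0.730 to 1.06 FPKM, and Fmo5, at 0.600 to 0.740 FPKM, were the only neighbours in that order whose libraries overlapped. In C57BL/6 the order was Myoc at 9.71, Fmo1 at 1.50, Fmo5 at 0.767, Fmo2 at 0.147 and Fmo4 at 0.0200 FPKM, and no neighbours overlapped. Myoc was thus the highest member in C57BL/6 and stood below 3 Fmo genes in DBA/2. The ratio of Fmo2 to Myoc FPKM was 2.22, 3.36 and 5.27 in DBA/2, against 0.0179, 0.0131 and 0.0140 in C57BL/6.

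Within the family, Fmo2 made up 34.3%, 35.0% and 27.5% of the summed Fmo FPKM in DBA/2, against 7.74%, 4.77% and 5.35% in C57BL/6. Fmo1 made up 41.5% ± 2.90 in DBA/2 and 61.7% ± 5.46 in C57BL/6 (SD, n = 3 each), and was the largest part in every library. All shares and sums here depend on the exonic lengths used. Fmo5 made up 23.8% ± 2.95 in DBA/2 and 31.0% ± 3.87 in C57BL/6 (SD, n = 3 each). The summed Fmo FPKM was 2.95, 3.03 and 2.67 in DBA/2, against 2.74, 2.16 and 2.48 in C57BL/6. The sums overlapped between strains while the shares of Fmo1, Fmo2 and Fmo5 did not. The gap for Fmo5 lay between 26.2% in DBA/2 and 26.5% in C57BL/6. Shares of a library add up to the whole, so a larger share of Fmo2 leaves less for Fmo1 and Fmo5. In CPM, Fmo5 itself overlapped between the strains. Fmo1 and Fmo2 transcripts had 64.9% identity over 1146 aligned bases. No other gene shared 200 or more bases with a member at 95% identity or above.

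**Figure D2:**
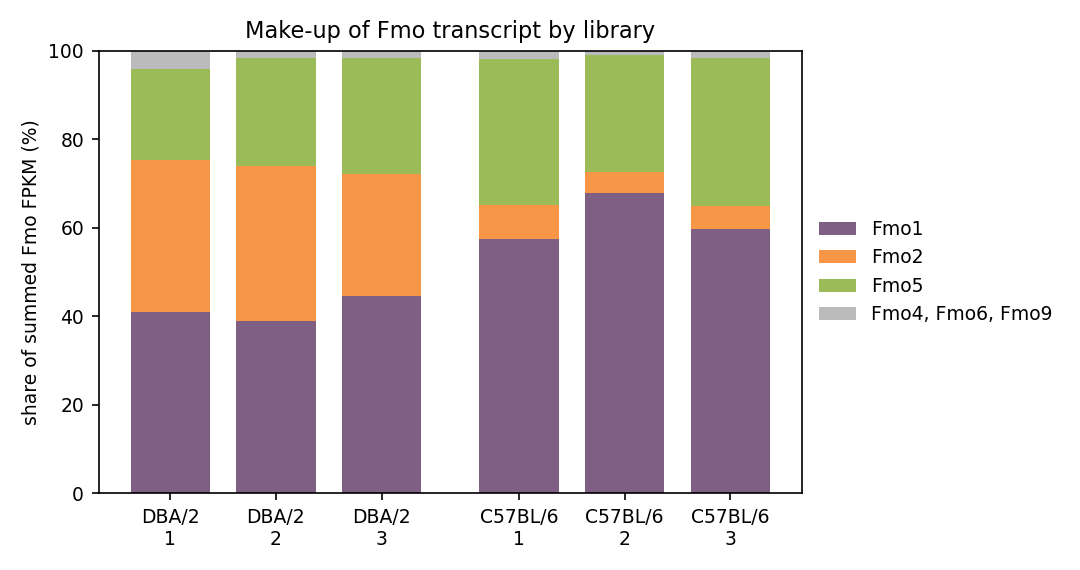
Share of each Fmo gene in the summed Fmo FPKM (vertical axis, %) in each library, DBA/2 at the left and C57BL/6 at the right. Each bar is 1 library. Fmo2 holds 27.5% to 35.0% of the bar in DBA/2 and 4.77% to 7.74% in C57BL/6.

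The genes around Myoc and its Fmo neighbours were examined from 1 Mb before Myoc to 1 Mb after Fmo2. This stretch holds 43 annotated genes that are no members, of which 31 had a count and 11 were tested. Of these 11, 7 had a Benjamini-Hochberg adjusted p under 0.05 in the quasi-likelihood test of edgeR, 6 lower and 1 higher in DBA/2, or 63.6% beside the 22.8% over all tested genes. With C57BL/6 replicate 2 alone fewer of them were called, but fewer were also called over all genes, so the share of 22.8% does not apply there. No test of the stretch as a whole was made.

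Kifap3, which encodes the cargo-binding subunit of the kinesin-2 motor, had 140, 149 and 138 CPM in DBA/2, against 253, 256 and 255 CPM in C57BL/6. Its log2 fold change was -0.84 ± 0.05 (SE; edgeR quasi-likelihood, Benjamini-Hochberg adjusted p = 1.26e-12). Prrx1, a homeobox transcription factor of mesenchyme, averaged 5.73 ± 0.181 CPM in DBA/2 and 11.5 ± 1.50 CPM in C57BL/6 (SD, n = 3 each), a log2 fold change of -1.01 ± 0.13 (edgeR adjusted p = 3.47e-06). Mettl11b, a methyltransferase gene, had only 13 counts in DBA/2 and 58 in C57BL/6, with a log2 fold change of -2.05 ± 0.49 (edgeR adjusted p = 0.00312). These 3 calls held under all count-based alternatives run, except that Mettl11b was not tested under a minimum mean of 1 CPM. The differences of Myoc and Fmo2 were wider than any of them.

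The tested genes on either side of Myoc differed little. Vamp4, a SNARE of the trans-Golgi network, averaged 74.0 ± 5.36 CPM in DBA/2 and 83.2 ± 1.81 CPM in C57BL/6 (SD, n = 3 each), with a log2 fold change of -0.17 ± 0.06 (edgeR adjusted p = 0.0422). Prrc2c, which encodes a stress granule protein, averaged 279 ± 19.9 CPM in DBA/2 and 251 ± 12.7 CPM in C57BL/6 (SD, n = 3 each), with a log2 fold change of 0.15 ± 0.05 (edgeR adjusted p = 0.0402). The call of Vamp4 was lost without any 1 library other than DBA/2 replicate 2 (adjusted p up to 0.203, without DBA/2 replicate 1), and by DESeq2. The call of Prrc2c was lost without DBA/2 replicate 2 or C57BL/6 replicate 1 or 2 (adjusted p up to 0.206), and by DESeq2 and limma-voom. With C57BL/6 replicate 2 alone the adjusted p was 0.248 for Vamp4 and 0.152 for Prrc2c. Dnm3, a dynamin of synapses, and Suco had log2 fold changes of -0.29 and -0.25 (edgeR adjusted p = 0.00342 and 0.00523). With C57BL/6 replicate 2 alone their adjusted p was 0.216 and 0.240, and that of Suco was 0.0515 without C57BL/6 replicate 3. Gm15429, Pigc, Mettl13 and Gorab were not called, with log2 fold changes of 0.71, -0.27, -0.01 and 0.13. That of Mettl13 changed sign when library size alone was used for scaling, and Pigc was called without DBA/2 replicate 2 (edgeR adjusted p = 0.0363).

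**Figure D3:**
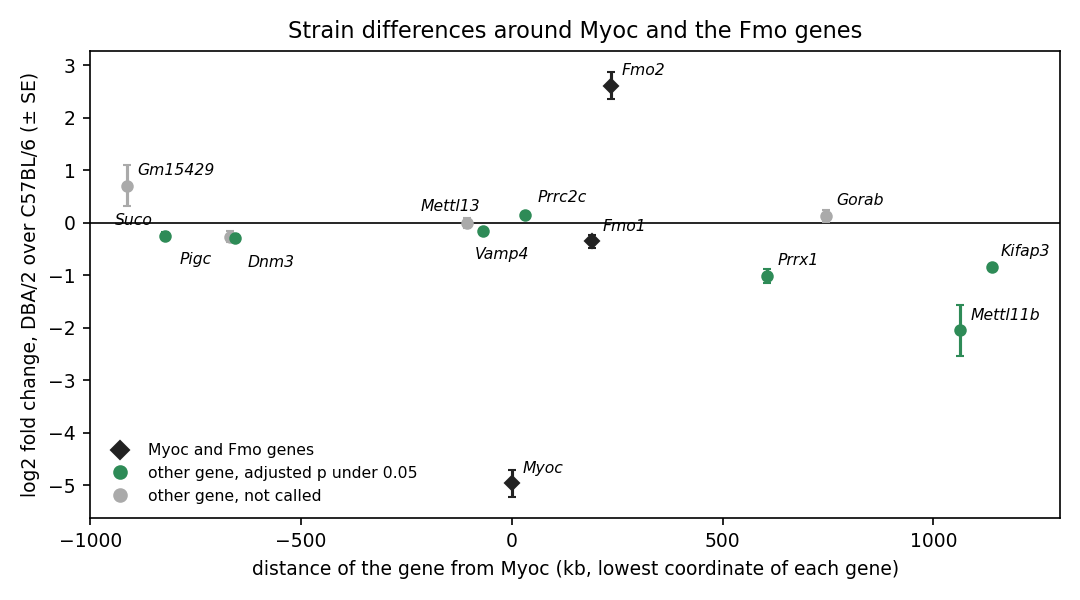
Log2 fold change, DBA/2 over C57BL/6 (vertical axis, error bars SE), of the tested genes around Myoc against their distance from Myoc in kb. Diamonds are Myoc, Fmo1 and Fmo2, green circles are other genes called by edgeR and grey circles are genes not called. Myoc at -4.97 and Fmo2 at 2.61 lie farthest from 0, and Vamp4 and Prrc2c beside Myoc lie at -0.17 and 0.15.

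Around Fmo5, 59 annotated genes within 1 Mb are no members and 23 were tested. Of these, 4 were called (17.4%, beside 22.8% over all tested genes), 2 in each direction. Phgdh, the first enzyme of serine synthesis and an astrocyte gene in brain, had 21.8, 21.5 and 21.8 CPM in DBA/2, against 64.0, 62.3 and 53.8 CPM in C57BL/6. Its log2 fold change was -1.47 ± 0.07 (SE; edgeR adjusted p = 2.80e-13). Zfp697 had a log2 fold change of -0.75 ± 0.09 (edgeR adjusted p = 6.38e-07). Prkab2, a subunit of AMP-activated kinase, had 0.22 ± 0.06 (edgeR adjusted p = 0.00731, and 0.129 with C57BL/6 replicate 2 alone), and Cd160 had 0.92 ± 0.32 (edgeR adjusted p = 0.0385). The call of Cd160 was lost without any 1 of DBA/2 replicates 2 and 3 and C57BL/6 replicates 1 and 3, with adjusted p from 0.0928 to 0.165, and with C57BL/6 replicate 2 alone it was 0.528. Prkab2 and Chd1l lie on either side of Fmo5, and Chd1l had a log2 fold change of -0.09 that was not called.

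Genes related to the members by domain or function were read from lists of known genes. Over all tested genes 22.8% were called, 9.09% higher and 13.7% lower. Only the edgeR counts over all 6 libraries, of this list and of all lists below, stand beside these shares. Over all genes, DESeq2 called 3155 of 31719 genes with a count, and limma-voom called 3946 of 17517. For counts at an unadjusted p, with libraries left out or with C57BL/6 replicate 2 alone, these shares do not apply, and none is given beside them. A list of 13 genes held carriers of an olfactomedin domain like that of Myoc and relatives of these carriers. Of the 13, 2 were called higher and 1 lower in DBA/2, fewer with C57BL/6 replicate 2 alone, and the median log2 fold change was 0.07. The called genes with the widest differences were Olfml3, a secreted matrix protein, at -0.44 ± 0.10 (SE; edgeR adjusted p = 0.00229, and 0.415 with C57BL/6 replicate 2 alone), and Olfml2b at 0.31 ± 0.07 (edgeR adjusted p = 0.0011, and 0.177 with C57BL/6 replicate 2 alone). All of these were far narrower than the difference of Myoc. Of 13 reported partners of myocilin and secretory chaperones, 4 were called higher and 3 lower, with a median of 0.19. Sparc, a secreted collagen-binding protein, averaged 168 ± 2.50 CPM in DBA/2 and 339 ± 27.2 CPM in C57BL/6 (SD, n = 3 each; log2 fold change -1.01, edgeR adjusted p = 6.50e-13). Pdia3, a disulphide isomerase of the endoplasmic reticulum, averaged 269 ± 1.56 CPM in DBA/2 and 206 ± 15.3 CPM in C57BL/6 (SD, n = 3 each; log2 fold change 0.39, edgeR adjusted p = 2.89e-06).

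Myoc is known to be induced by glucocorticoids in cultured cells of the eye. A glucocorticoid list held 18 genes, among them the receptor genes Nr3c1 and Nr3c2, which were not called. Of the 18, 8 were called lower and 0 higher in DBA/2 by edgeR, and the median log2 fold change of the list was -0.19. At an unadjusted p under 0.05, 9 were lower and 1 higher, and DESeq2 and limma-voom each called 7 lower and 0 higher. The metallothionein Mt2 had a log2 fold change of -0.70 (edgeR adjusted p = 0.0243), and that call was lost without DBA/2 replicate 2 or 3, with adjusted p of 0.0617 and 0.0958. The phosphatase gene Dusp1 averaged 19.5 ± 1.99 CPM in DBA/2 and 28.3 ± 1.85 CPM in C57BL/6 (SD, n = 3 each; log2 fold change -0.54, edgeR adjusted p = 6.42e-05). These differences were several log2 units narrower than that of Myoc. A link between the genes of this list and the level of Myoc was not tested.

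Other oxidation enzymes that share substrates or membranes with the Fmo enzymes moved in both directions. Of 21 tested microsomal oxidation genes, 3 were called higher and 5 lower in DBA/2, and the median log2 fold change was -0.07. Cyp51, the sterol demethylase of cholesterol synthesis, averaged 42.1 ± 0.267 CPM in DBA/2 and 82.2 ± 3.22 CPM in C57BL/6 (SD, n = 3 each; log2 fold change -0.96, edgeR adjusted p = 6.78e-12). Cyp2j12 had a log2 fold change of -0.65 (edgeR adjusted p = 0.0146), and lost its call without C57BL/6 replicate 2 or DBA/2 replicate 2 or 3, with adjusted p of 0.0528 to 0.0772, and with C57BL/6 replicate 2 alone (0.0521). The number of called genes in this list was 5 without DBA/2 replicate 3 or C57BL/6 replicate 3, and 2 with C57BL/6 replicate 2 alone. Of 9 amine and aldehyde oxidation genes, 4 were called lower and 0 higher by edgeR, DESeq2 and limma-voom alike, with a median of -0.36. At an unadjusted p under 0.05, 5 were lower and 1 higher. Aldh7a1, of lysine breakdown, averaged 33.1 ± 0.156 CPM in DBA/2 and 84.2 ± 3.48 CPM in C57BL/6 (SD, n = 3 each; log2 fold change -1.35, edgeR adjusted p = 2.62e-14). Aldh1a1, a retinaldehyde dehydrogenase, averaged 29.8 ± 2.64 CPM in DBA/2 and 53.4 ± 6.35 CPM in C57BL/6 (SD, n = 3 each; log2 fold change -0.84, edgeR adjusted p = 4.53e-07).

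Most listed markers of the astrocytes in which Myoc is known were also lower in DBA/2. Of 10 genes of surface astrocytes, 8 were called lower and 1, the complement gene C4b, higher. The median log2 fold change of the list was -0.55, and Vim, at 0.06, was not called. Leaving out 1 library in turn gave 7 to 9 called genes. Fewer were called with C57BL/6 replicate 2 alone, a setting with 1 library in that strain. C4b lost its call without DBA/2 replicate 1 (edgeR adjusted p = 0.0636). Among the genes called lower, Aqp4 lost its call without DBA/2 replicate 1, 2 or 3 (edgeR adjusted p = 0.145, 0.155 and 0.125). It was also lost without C57BL/6 replicate 3 (0.101), and Fbln5 lost its call without DBA/2 replicate 3 (edgeR adjusted p = 0.0598). Their summed level was 615, 595 and 555 CPM in DBA/2, against 881, 743 and 776 CPM in C57BL/6. The astrocytic filament gene Gfap averaged 213 ± 18.2 CPM in DBA/2 and 331 ± 36.1 CPM in C57BL/6 (SD, n = 3 each; log2 fold change -0.64, edgeR adjusted p = 0.000594). Agt, or angiotensinogen, had the lowest log2 fold change of the list, at -0.83. The difference of Myoc was wider: per length, there were 0.819, 0.635 and 0.296 Myoc transcripts for every 100 of Gfap in DBA/2, against 13.6, 10.8 and 12.9 in C57BL/6. Phgdh, the astrocyte gene near Fmo5, was lower in the same libraries.

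Other marker lists moved with strain too. Thalamus and habenula markers, of the tissue beside the hippocampus, were called lower in 8 of 12 genes and higher in 0 by edgeR, and their median log2 fold change was -0.93. All 12 were lower and 0 higher at an unadjusted p under 0.05 and by DESeq2 and limma-voom, and edgeR called 5 with C57BL/6 replicate 2 alone. Their sum was 276 to 369 CPM in DBA/2 and 513 to 703 CPM in C57BL/6. Of 8 ependyma markers, 4 were called lower (1 with C57BL/6 replicate 2 alone), with sums of 28.6 to 44.4 CPM in DBA/2 and 48.5 to 59.4 CPM in C57BL/6. Of 10 oligodendrocyte markers, 2 were called lower, with sums of 4677 to 6316 CPM in DBA/2 and 6962 to 8702 CPM in C57BL/6. Leaving out DBA/2 replicates 1, 2 and 3 in turn gave oligodendrocyte counts of 3, 0 and 8, and leaving out C57BL/6 replicate 1 gave 4. In all 6 libraries DESeq2 and limma-voom called 7 and 9 lower, and edgeR called 1 with C57BL/6 replicate 2 alone. Of the 9 marker lists, these 3 and the surface astrocyte list had the same order of libraries as Myoc within both strains. No list had the library order of Fmo1, Fmo2 or Fmo5 within both strains. The part of these tissue markers in the level of Myoc was not tested.

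By edgeR, 0 of 15 genes of fibroblasts and meninges and 0 of 14 genes of choroid plexus were called, with sums of 279 to 432 CPM in DBA/2 and 428 to 610 CPM in C57BL/6 for the first list, and 1298 to 2846 CPM in DBA/2 and 722 to 1597 CPM in C57BL/6 for the choroid plexus list. Leaving out DBA/2 replicate 3 gave 2 called fibroblast genes and 3 called choroid plexus genes, leaving out DBA/2 replicate 1 gave 1 fibroblast gene, and 2 choroid plexus genes were called without C57BL/6 replicate 1. At an unadjusted p under 0.05, 2 fibroblast genes were higher and 2 lower, and 2 choroid plexus genes were higher. DESeq2 and limma-voom called 1 and 2 fibroblast genes and 1 and 5 choroid plexus genes. The list medians were -0.12 and 0.51. In the fibroblast sum the largest part was Ptgds, with means of 146 CPM in DBA/2 and 341 CPM in C57BL/6. Igf2, the next largest, went the other way, at 97.0 CPM in DBA/2 and 61.4 CPM in C57BL/6. Most of the choroid plexus sum was Ttr, at 1835 CPM in DBA/2 and 945 CPM in C57BL/6. Both sums thus follow single genes more than their whole lists. Of 12 endothelial genes, 3 were called higher and 1 lower, and 10 were called without C57BL/6 replicate 3 and with C57BL/6 replicate 2 alone. Of 10 mural cell genes 1 was called lower, and 2 were called without C57BL/6 replicate 1 or 3. Endothelial sums were 306 to 372 CPM in DBA/2 and 239 to 334 CPM in C57BL/6, and mural cell sums were 197 to 227 CPM in DBA/2 and 181 to 221 CPM in C57BL/6. No defining marker was at 0 in all libraries. Fmo2 was higher in DBA/2 by far more than any of these sums, and their part in its level was not tested.

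**Figure D4:**
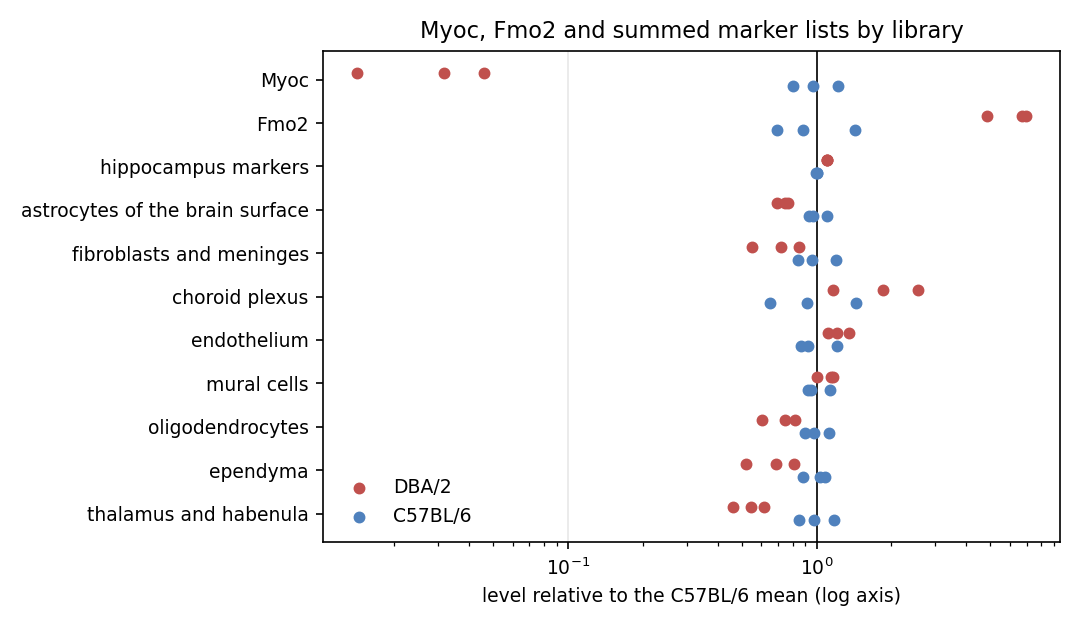
Level of Myoc, Fmo2 and the summed CPM of each marker list in every library, relative to the C57BL/6 mean of the same row (horizontal log axis). Points are libraries, red for DBA/2 and blue for C57BL/6. Ptgds is the largest part of the fibroblast sum, and Ttr that of the choroid plexus sum. The list of surface astrocytes lies at 555 to 615 CPM in DBA/2 and 743 to 881 CPM in C57BL/6, a narrower gap than those of Myoc and Fmo2.

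The genes whose profile over the 6 libraries lay nearest to each member were found among 13617 genes, by the root mean square difference of centred log2(CPM + 0.1) values. Nearest to Myoc was Pttg1, or securin, on chromosome 11, at 0.33 log2 units, with 1.02 ± 0.316 CPM in DBA/2 and 25.4 ± 1.61 CPM in C57BL/6 (SD, n = 3 each). Smco3 followed at 0.50, with 0 counts in DBA/2 and 2.14 ± 0.707 CPM in C57BL/6 (SD, n = 3). The MHC class I gene H2-K1 followed at 0.51, with 0.715 ± 0.0729 CPM in DBA/2 and 21.2 ± 1.21 CPM in C57BL/6 (SD, n = 3 each), and belongs to a family of near-identical genes, so its level is uncertain. Unlike Myoc, Pttg1 and H2-K1 varied little among the C57BL/6 libraries.

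Nearest to Fmo2 were Eno1b on chromosome 18, an enolase gene with a close relative in Eno1 and so of uncertain level, at 0.35 log2 units, Gzmk, a granzyme gene, at 0.38, and Lgr6, a receptor gene on chromosome 1, at 0.38. Eno1b averaged 111 ± 5.09 CPM in DBA/2 and 23.3 ± 1.35 CPM in C57BL/6, and Lgr6 averaged 20.8 ± 2.12 CPM in DBA/2 and 5.30 ± 0.739 CPM in C57BL/6 (SD, n = 3 each). Nearest to Fmo1 were Snx5, Vdac1 and Atad1, at 0.0154, 0.0175 and 0.0184 log2 units. The distance is not scaled to the size of a gene's own differences, which were small for Fmo1. It therefore cannot be compared between members. Vdac1, a channel of the outer mitochondrial membrane, averaged 264 ± 6.95 CPM in DBA/2 and 338 ± 9.60 CPM in C57BL/6 (SD, n = 3 each). These neighbours were found on other chromosomes than the members, except Lgr6. They were picked for likeness in these 6 libraries, so their levels are a description.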

How the data were processed

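Per the submitters' processing notes, the tools included Trimmomatic 0.30, HISAT2 2.0.1 and Cufflinks 2.2.1, with build GRCm38, and RNA was extracted with TRIzol and made into libraries with an NEBNext Ultra kit, per the labels. No source used here names the counting program, its strand setting or its annotation. Deposited by the authors was a table with raw counts per gene, FPKM values and the exonic length of each gene. The deposited FPKM equal the library-scaled counts per kilobase within 0.005. Another 12 columns of per-sample values matched no labelled sample and were not used.

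Counts were tested in R 4.3.3 with edgeR 4.0.16 (TMM scaling, filter on low counts by strain, robust quasi-likelihood test, Benjamini-Hochberg adjustment over 17517 tested genes). CPM use TMM-scaled library sizes. The procedure was tested on simulated data. DESeq2 1.42.0, limma 3.58.1, other scalings and filters, pseudocounts of 0.1 and 1 on FPKM, other windows and left-out libraries were alternatives. Positions come from GENCODE M21 on GRCm38, which held 99.5% of the gene IDs. Transcripts were compared with BLAST 2.17.0. The reference is of C57BL/6J, and lost DBA/2 reads were not tested for. The chi-square per degree of freedom of counts was 3.16 to 3.93 between replicate libraries and 13.7 to 18.6 between strains, so no library was a repeat of another. The counting interval and floors cover counting error only, since reads carry no molecular identifiers.

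The members and lists were chosen with earlier results of these data known. Besides the members, the text names every detected Fmo gene, up to 8 called genes per window with the tested genes beside Myoc, the 3 nearest profiles of Myoc, Fmo1 and Fmo2, and the 2 called genes with the widest difference in each list of related genes. The marker lists fall outside this rule: they are given by counts and sums, and the genes named from them, like any other gene outside the rule, were chosen after their values were seen.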

Additional observations from a re-analysis of the deposited data

How the results depend on the processing

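Under 16 alternatives, Myoc and Fmo1 kept a negative and Fmo2 a positive log2 fold change. Left-out libraries gave -5.37 to -4.67 for Myoc, -0.37 to -0.32 for Fmo1, 2.44 to 2.94 for Fmo2 and -0.36 to -0.085 for Fmo5. A pseudocount on FPKM narrows the changes of low genes by its construction. With log2(FPKM + 1) in limma, Myoc was at -3.03, Fmo1 at -0.19 and Fmo2 at 0.75, and with log2(FPKM + 0.1) Fmo1 was at -0.31 and Fmo2 at 2.08. Without the C57BL/6 libraries with Xist, where C57BL/6 replicate 2 is assumed to vary like the DBA/2 libraries, Fmo2 was at 3.15 and Fmo5 turned to 0.23. This setting called 2012 genes in all, 3 around Myoc and 2 around Fmo5, with fewer samples. The leave-out of these libraries for the gene lists was chosen after seeing the data and gave 48 called genes, beside 62 of 174. Around Myoc, 4 of 6 tested genes were called within 0.5 Mb, 7 of 11 within 1 Mb and 17 of 33 within 2 Mb. Around Fmo5 these were 1 of 8, 4 of 23 and 7 of 66, and around both the share called was lower within 2 Mb than within 1 Mb.

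Over all genes 4000 were called, or 22.8% of those tested, beside 62 of the 174 tested list genes. The number over all genes was 3131 to 3717 with 1 library left out, 3155 by DESeq2, 4513 without a filter and 4147 by library size alone. The replicate numbers did not pair the libraries: same-numbered deviations correlated at 0.13, -0.08 and 0.003. A fit with the replicate number as a block called 3827 genes, 3676 of them shared, gave Myoc -4.97, Fmo1 -0.36, Fmo2 2.59 and Fmo5 -0.19, and called 85 list genes, 6 genes around Myoc and 3 around Fmo5. By list, the block called 7 of 14 choroid plexus genes and 3 of 15 fibroblast genes, beside 0 and 0 without it, and 9 of 10 oligodendrocyte and 12 of 12 thalamus genes, beside 2 and 8. Depth limits Fmo4, Fmo6 and Fmo9, which lay at or under 3 counts per library, and Myoc in DBA/2.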
